A study of Rattus norvegicus with 22 samples.

Results

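Transcripts of the mitochondrial genome were followed in RNA sequencing libraries of rat ventral cervical spinal cord. The members were all genes of the count table whose symbol starts with AY172581. or with Mt-, in any letter case. This gave 37 of 32883 genes, of which 13 have an Mt- symbol and 24 an AY172581. symbol. Libraries were made from 5 intact males, 5 gonadectomized (GDX) males, 6 intact females and 6 ovariectomized (OVX) females, with 1 library per rat. The rats were Sprague-Dawley animals of 3 to 4 months, and the females were virgin. GDX males had lost both testes and OVX females both ovaries 2 weeks before the tissue was taken, and the intact rats were age-matched animals with their gonads in place for which no sham surgery is described. Tissue came from segments C3-C6 with the dorsal side removed. The total count per library ranged from 12371756 to 17571887, with a median of 14722472.

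Mitochondria keep a small circular genome that is transcribed from both strands as long precursors, which are cut into ribosomal RNAs, transfer RNAs and messenger RNAs. The messenger RNAs encode core subunits of respiratory complexes I, III and IV and of the ATP synthase (complex V), while all other subunits come from the nucleus. Neurons of the spinal cord depend on oxidative phosphorylation for firing and axonal transport.

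The 13 Mt- genes cover the protein-coding set. Of these, 7 encode subunits of complex I (Mt-nd1, Mt-nd2, Mt-nd3, Mt-nd4, Mt-nd4l, Mt-nd5 and Mt-nd6), and the others are Mt-cyb of complex III, Mt-co1, Mt-co2 and Mt-co3 of complex IV, and Mt-atp6 and Mt-atp8 of complex V. The count table does not pair the 24 AY172581. features with gene names, so they are given by symbol. Only 2 of these features had a mean of 1000 counts or more per library, AY172581.24 (ENSRNOG00000043866) and AY172581.9 (ENSRNOG00000030478). Another 10 had a mean between 20 and 1000 counts and 12 had a mean under 20. In 9 of the 24 features at least 1 library had no count.

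The tissue label was compared with marker genes. Markers of oligodendrocytes, neurons and astrocytes were abundant, with a mean of 12327 CPM (library-scaled counts, adjusted by TMM factors) for Mbp, 5470 CPM for Nefm and 3509 CPM for Gfap. Prph, which marks motor neurons, had 235 CPM, and the most abundant of the dorsal horn genes followed, Penk, had 39.1 CPM. Each gene named here is the most abundant of its list, and levels of different genes do not tell how much dorsal tissue was left.

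Several libraries stood apart from the rest. In intact females 1 and 3 and OVX females 2 and 5, Mt-nd2 made up between 8.28% and 8.78% of the counts of the 13 Mt- genes, against 6.78% to 7.59% in the other 18 libraries. Mt-nd1 was also higher in these 4 libraries, at 10.9% to 11.4% against 9.23% to 10.3%, and Mt-co2 was lower, at 7.26% to 8.70% against 9.16% to 11.8%. None of these 3 ranges overlapped, while those of all other Mt- genes did. The 4 libraries were set by the largest gap in the Mt-nd2 share, so the gap in Mt-nd2 follows from the choice. Shares of 1 library sum to a whole, so those of Mt-nd1 and Mt-co2 are not independent of it. The 4 libraries were noticed after their values were seen, and comparisons that include females are given with and without them where the call or the direction changes. Libraries also differed in the average fragment size listed by the study. All GDX and OVX libraries, intact males 2 and 5 and intact females 1 and 4 are of a shorter class, and the other 7 intact libraries are of a longer class. Fragment class and removal of the gonads therefore move together, and within the longer class no gonadectomized rat is present.

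Mitochondrial transcripts took between 21.2% and 29.6% of all counts in a library. In intact males the share was 23.6%, 22.1%, 24.3%, 21.3% and 23.2% for rats 1, 2, 3, 5 and 6. In GDX males it was 22.2%, 22.7%, 29.6%, 26.9% and 26.1% for rats 1, 2, 4, 5 and 6. GDX males 4, 5 and 6 lay above every intact male, whereas GDX males 1 and 2 lay within their range. Intact females had a lowest share of 22.01%, a median of 23.4% and a highest of 25.6%. In OVX females these were 21.2%, 23.0% and 28.1%, and the highest value came from rat 3. The range of intact females lay within that of OVX females. The mean of intact males was 22.9% ± 1.22 and that of GDX males 25.5% ± 3.07 (SD, n = 5 each). Intact females had a mean share of 23.5% ± 1.35 and OVX females one of 23.7% ± 2.57 (SD, n = 6 each). The log2 ratio of the means was 0.16 for GDX over intact males, with a pooled SD between rats of 0.13, and 0.0092 for OVX over intact females, with a pooled SD of 0.12. The male value was 0.097 without GDX male 4 and 0.23 in the shorter class. Without AY172581.24 the female value was 0.065. The sign of the female value changed to -0.058 in the shorter class, to -0.046 without OVX female 3, to -0.0095 without OVX female 5, to -0.0092 without intact female 3 and to -0.0061 without intact female 5. With other single rats left out it reached 0.039. Since the share is a sum over members chosen with results known, no test was applied to it. The widest 95% Wilson interval of any share was 0.0478 percentage points, so counting error was small beside the spread between rats. Wilson intervals cover counting error only, as reads carried no molecular identifiers. In bulk tissue, fewer cells of a type and less RNA per cell cannot be told apart.

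**Figure D1:**
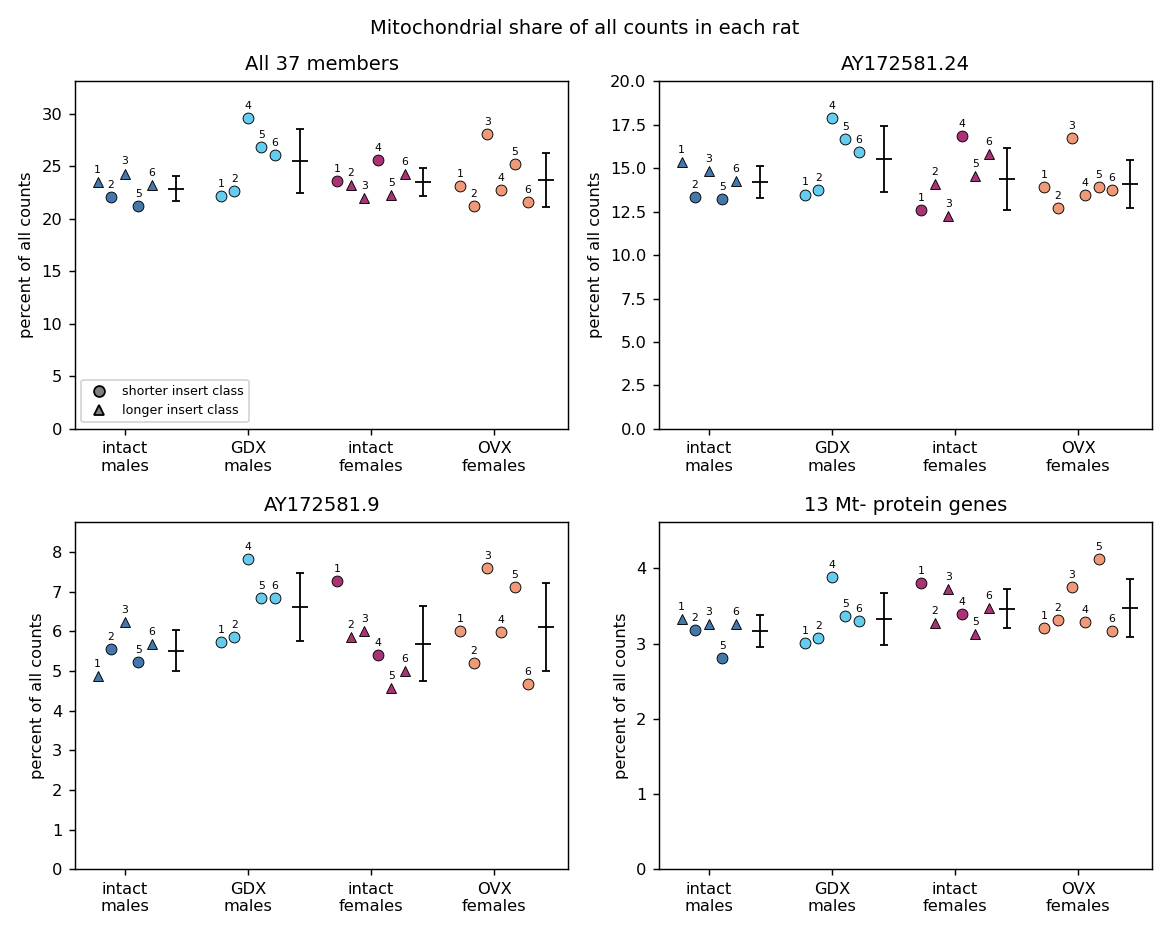
Percent of all counts taken by all members, by AY172581.24, by AY172581.9 and by the 13 Mt- protein genes, with 1 point per rat labelled by its number, the mean with SD at the right of each group, and circles or triangles for the shorter or longer fragment class. GDX males 4, 5 and 6 have member shares of 26.1% or more, above the 24.3% that is the highest intact male.

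Most of the mitochondrial counts came from a single feature. AY172581.24 took 12.3% to 17.9% of all counts, AY172581.9 took 4.58% to 7.82% and the 13 Mt- genes together took 2.81% to 4.12%. The other 22 AY172581. features added 0.0049% to 0.0109%. Sources differ on the library kit and do not settle whether mitochondrial ribosomal RNA was removed, so these shares of counts, and that of all members, may not be shares of the transcripts in the tissue. In intact males AY172581.24 made up 15.3%, 13.4%, 14.8%, 13.2% and 14.3% of all counts for rats 1, 2, 3, 5 and 6. In GDX males it made up 13.5%, 13.8%, 17.9%, 16.7% and 15.9% for rats 1, 2, 4, 5 and 6. Again GDX males 4, 5 and 6 were above all intact males and the others were not. Intact females ranged from 12.3% to 16.8% with a median of 14.3%, and OVX females from 12.7% to 16.7% with a median of 13.8%.

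The balance of the 2 abundant features was uneven between libraries. There were between 1.73 and 3.18 counts of AY172581.24 for each count of AY172581.9. Intact male 1, intact females 4, 5 and 6 and OVX female 6 had 2.94 to 3.18, and the other 17 libraries had 1.73 to 2.53, with no library in between. The 5 libraries with the high ratio include both fragment classes, both sexes and 1 gonadectomized rat. This gap was noticed after the values were seen, and its source was not tested.

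Relative to the protein-coding transcripts of the same genome, AY172581.24 had 461, 421, 454, 470 and 438 counts per 100 Mt- counts in intact males 1, 2, 3, 5 and 6. In GDX males 1, 2, 4, 5 and 6 the ratio was 448, 448, 460, 497 and 483. The male groups overlapped, with means of 449 ± 19.7 (SD, n = 5) and 467 ± 21.7 (SD, n = 5). The difference was 18.4 (exact permutation test, two-sided p = 0.206, adjusted p = 0.824 over 8 tests), and it turned to -7.56 with all members except AY172581.24 as denominator. It was smaller without GDX male 5, at 497, or without intact male 2, at 421. Intact females ranged from 330 to 496 with a median of 444 and OVX females from 338 to 446 with a median of 422, a difference in means of -10.6 (exact permutation p = 0.751, adjusted p = 0.893), which turned to 4.93 without intact female 4 and 3.37 without OVX female 5. Without the 4 libraries that stand apart, OVX females had 410 to 446 and intact females 430 to 496. The difference then kept its direction and was larger in size. The lowest ratios were those of intact females 1 and 3 and OVX female 5, all among the libraries that stand apart. Intact males exceeded intact females by 30.4 (exact permutation p = 0.392, adjusted p = 0.893), and without the 4 libraries that stand apart the difference was -13.5. The excess was smaller without intact female 1 or 3 alone, at 331 and 330, and larger without intact female 4, at 496.

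The Mt- genes are given in the order of their mean shares. Counts of different genes also depend on gene length, which was not at hand, so these are shares of counts and not levels. Mt-co1, the catalytic core of cytochrome c oxidase, made up 21.04% ± 0.556 (SD, n = 22) of the Mt- counts, and Mt-atp6, part of the proton channel of the ATP synthase, 19.3% ± 0.961. These genes held the first 2 places in all 22 rats. Mt-co3 followed with 12.3%, Mt-nd1 with 10.01%, Mt-co2 with 9.54%, Mt-cyb with 8.23%, Mt-nd2 with 7.38% and Mt-nd5 with 6.77%, and places among these varied between rats, for Mt-co2 from 3 to 7. Mt-atp8 was ninth in each rat with 2.48%. Mt-nd4l, Mt-nd4, Mt-nd6 and Mt-nd3 held the last 4 places with 1.28%, 0.935%, 0.446% and 0.322%. By complex, the 7 genes of complex I made up 27.1% ± 1.15 (SD, n = 22), Mt-cyb of complex III 8.23% ± 0.462, the 3 genes of complex IV 42.8% ± 1.36 and the pair of complex V 21.8% ± 0.863.

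Mt-atp6 was the gene whose share separated the male groups. It made up 19.6%, 19.8%, 19.9%, 19.4% and 19.6% of the Mt- counts in intact males 1, 2, 3, 5 and 6. In GDX males 1, 2, 4, 5 and 6 it made up 19.0%, 18.6%, 16.3%, 18.01% and 18.4%. Every GDX male was below every intact male, and GDX male 4 was the lowest. The shares were not tested, and in CPM the groups overlapped, and the log2 fold change of Mt-atp6 was -0.017 (SE 0.068, adjusted p = 0.91 by edgeR). Mt-nd4l was the gene whose share separated intact males from intact females, with 1.21% to 1.26% in males and 1.29% to 1.36% in females. Mt-atp8 was lowest in intact females 1 and 3 and OVX female 5, at 1.50%, 1.56% and 1.52%, against 1.93% to 3.17% in the other 19 libraries.

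**Figure D2:**
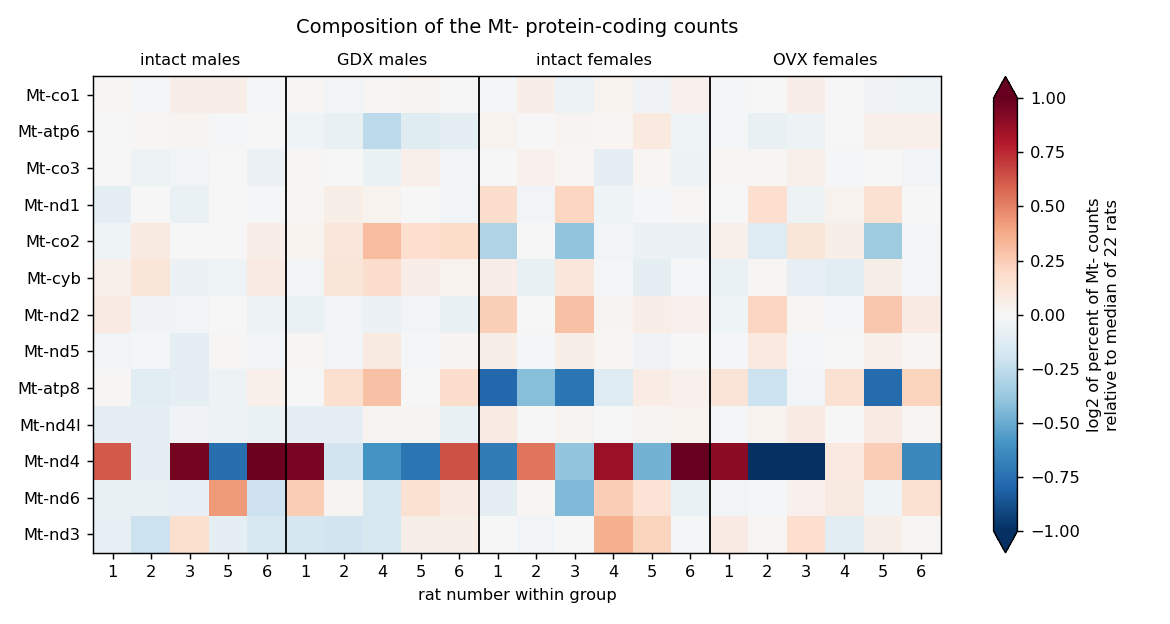
Share of each gene in the counts of the 13 Mt- genes, shown as log2 of its percent relative to the median of 22 rats, with rats in columns by group and colours limited to -1 and 1. Intact females 1 and 3 and OVX females 2 and 5 have more Mt-nd1 and Mt-nd2 and less Mt-co2, and Mt-nd4 varies in all groups.

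Mt-nd4, a membrane subunit of complex I, varied most among the Mt- genes. In intact males 1, 2, 3, 5 and 6 it had 411, 230, 513, 129 and 520 CPM. The GDX males 1, 2, 4, 5 and 6 had 454, 211, 218, 169 and 431 CPM. In both male groups some rats lay at 411 CPM or above and the others at 230 CPM or below, with no male in between. Intact females ranged from 178 to 579 CPM with a median of 303, and OVX females from 117 to 471 CPM with a median of 217. Intact female 2 at 382 CPM and OVX females 4 and 5 at 276 and 398 CPM lay within the gap of the males. All groups overlapped. The highest library had 4.93 times the CPM of the lowest. Within groups the SD of Mt-nd4 was 0.79 on the log2 scale, and of the 1584 genes with a mean of at least 100 CPM only 4 had a larger one (0.253%). The median SD of these genes was 0.073, and the other 12 Mt- genes had SDs of 0.15 to 0.27.

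Mt-nd4l, whose reading frame overlaps the start of Mt-nd4 on the same precursor, did not share this spread. Its CPM ranged from 336 to 573 with a within-group SD of 0.19. Mt-nd4 had 0.216 to 1.29 counts for each count of Mt-nd4l, and in 14 of 22 rats it had fewer counts than Mt-nd4l. Since overlapping genes can lose reads in counting and the overlap and multi-mapping settings are not given in the sources used here, the counts of Mt-nd4 are uncertain. The same holds for Mt-atp8 and Mt-atp6, which overlap each other.

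Fragment class was set beside Mt-nd4 because intact males split by it. The longer-class males 1, 3 and 6 had 411, 513 and 520 CPM and the shorter-class males 2 and 5 had 230 and 129 CPM. Intact females did not split in this way, since the shorter-class rats 1 and 4 had 186 and 519 CPM and the longer-class rats 2, 3, 5 and 6 had 382, 224, 178 and 579 CPM. When the classes were compared over intact rats in a model that also held sex, the longer class was at 0.60 on the log2 scale relative to the shorter (SE 0.36, adjusted p = 0.743 by edgeR). The part of fragment class in the spread of Mt-nd4 was not tested beyond this.

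**Figure D3:**
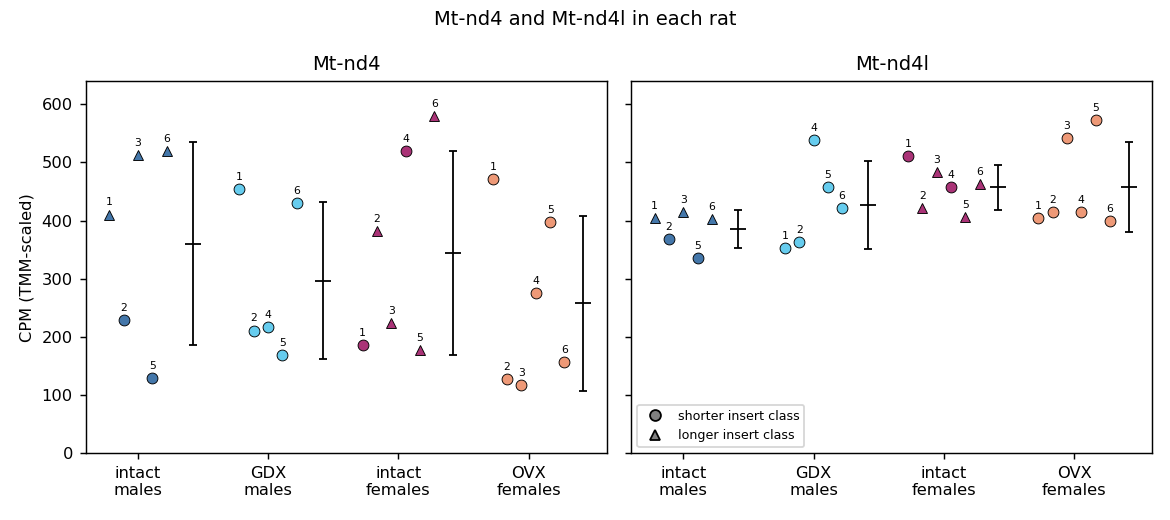
CPM of Mt-nd4 and of Mt-nd4l in each rat, labelled by rat number, with the mean and SD at the right of each group and circles or triangles for the shorter or longer fragment class. Mt-nd4 spans 117 to 579 CPM and Mt-nd4l 336 to 573 CPM.

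Mt-nd6 is the protein gene read from the strand opposite to the others. It made up 0.416%, 0.417%, 0.415%, 0.589% and 0.380% of the Mt- counts in intact males 1, 2, 3, 5 and 6. In GDX males 1, 2, 4, 5 and 6 it made up 0.519%, 0.448%, 0.393%, 0.487% and 0.465%. Intact male 5 was the highest of all 22 rats, and the groups overlapped. Mean shares were 0.443% ± 0.0830 and 0.462% ± 0.0469 (SD, n = 5 each; exact permutation test, two-sided p = 0.675, adjusted p = 0.893). This difference turned to -0.0405 percentage points in the shorter class and to -0.0064 with all members except AY172581.24 as denominator. Single rats also moved its size. It was larger without intact male 5, since the other intact males had 0.380% to 0.417%, and smaller without GDX male 1 or intact male 6. Intact females ranged from 0.323% to 0.521% with a median of 0.430% and OVX females from 0.426% to 0.488% with a median of 0.443% (exact permutation p = 0.606, adjusted p = 0.893). The female difference in means was 0.0168 percentage points and turned to -0.0163 in the shorter class, -0.00654 without the 4 libraries that stand apart, -0.00511 without intact female 3 and -0.000596 with the other denominator. Between fragment classes in intact rats, within sex, the difference of longer minus shorter was -0.0744 percentage points (exact permutation p = 0.133, adjusted p = 0.824). It rests in large part on intact male 5, of the shorter class at 0.589%, and was smaller in size without this rat. None of the 8 exact tests on this share and on AY172581.24 per 100 Mt- counts passed an adjusted p of 0.1. The strand setting of the counting is not given in the sources used here, so reads of Mt-nd6 and of transcripts opposite to it cannot be told apart.

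Removal of the testes was examined first among the comparisons across all genes. Of the 37 members 26 passed the filter on low counts, namely all 13 Mt- genes and 13 AY172581. features. AY172581.9 was the 1 member called at an adjusted p under 0.1 by edgeR's quasi-likelihood test, beside 13.4% of all 14931 genes tested in either direction and 6.78% with a higher level, so the members' share of calls was below that of all genes. At the same time 5 members had an unadjusted p under 0.05, and 23.8% of all genes did.

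AY172581.9 had 49037, 53592, 63044, 50340 and 57100 CPM in intact males 1, 2, 3, 5 and 6. The GDX males 1, 2, 4, 5 and 6 had 55619, 57366, 82603, 71012 and 71307 CPM. GDX males 4, 5 and 6 were above every intact male, and GDX males 1 and 2 overlapped with them. The log2 fold change was 0.31 (SE 0.097, adjusted p = 0.0637 by edgeR). Adjusted p by edgeR was 0.152 without GDX male 4, 0.137 without GDX male 5, 0.129 without GDX male 6, 0.149 without intact male 1, 0.12 without intact male 2 and 0.134 without intact male 5. It was 0.138 by edgeR with fragment class as a term and 0.159 in the shorter class alone, where the log2 fold changes were both 0.38 and only 2 intact males remained. With all 22 rats in 1 fit it was 0.15 by edgeR, and DESeq2 gave 0.1, so this call holds in some settings only.

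Of the 26 tested members, AY172581.9 among them, 21 had log2 fold changes above 0 for GDX, with a median of 0.16, against 7546 of 14931 genes and a median of 0.0021 over all genes tested. Mt-atp8 had 0.29 (SE 0.12, adjusted p = 0.145 by edgeR), Mt-co2 0.27 (SE 0.11, adjusted p = 0.161) and Mt-nd6 0.18 (SE 0.071, adjusted p = 0.141). AY172581.1 had 0.40 (SE 0.14, adjusted p = 0.101) and AY172581.24 had 0.18 (SE 0.091, adjusted p = 0.26). Mt-nd4 had -0.28 with a 95% interval from -1.01 to 0.45, and its sign changed to 0.73 with fragment class as a term. None of these members was called by edgeR with TMM factors and the filter used throughout, while DESeq2 called AY172581.1 (adjusted p = 0.0626) and Mt-nd6 (adjusted p = 0.0987) among 2101 genes. By edgeR, AY172581.1 was called with library size from nuclear genes (adjusted p = 0.0993), with a filter at 1 CPM (adjusted p = 0.0996), without GDX male 4 (adjusted p = 0.0889, with AY172581.18 at 0.49 and adjusted p = 0.0679), without GDX male 5 (adjusted p = 0.0949) and without intact male 5 (adjusted p = 0.0904). Mt-nd6 was called without GDX male 2 (adjusted p = 0.0551) and without intact male 5 (adjusted p = 0.0477). Without GDX male 1, Mt-co2 (adjusted p = 0.0453), Mt-atp8 (adjusted p = 0.0436), Mt-nd1 (adjusted p = 0.094) and AY172581.24 (adjusted p = 0.0861) were called by edgeR beside AY172581.9, among 2446 genes. The direction of the members is not independent between genes, since they share libraries and precursors.

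Nuclear genes that act on mitochondria were counted beside the members and are to be read against the 13.4% of all genes called for GDX. The share called was below this in the nuclear lists except the regulators of biogenesis. There, 2 of 11 genes were called, and 1 call fewer would put that list below it too, so it is not set apart. Among 18 genes of mitochondrial DNA transcription and replication, 1 fell after GDX, the DNA polymerase gene Polg, at -0.17 on the log2 scale (SE 0.055, adjusted p = 0.068 by edgeR). Tfam, which packages and transcribes the mitochondrial genome, was not called, with 0.18 (adjusted p = 0.159). Of 24 tested genes of mitochondrial RNA processing, 2 fell, Elac2, which cleaves transfer RNA ends, at -0.18 (adjusted p = 0.0825), and Grsf1, an RNA granule protein, at -0.12 (adjusted p = 0.0985). Of 11 regulators of biogenesis, 2 fell, Esrrg from 58.3 ± 1.65 to 46.4 ± 5.15 CPM (SD, n = 5 each; adjusted p = 0.0104 by edgeR) and the coactivator Ppargc1a at -0.23 (adjusted p = 0.0375). Of 18 genes that follow mitochondrial mass 2 fell, the import channel gene Tomm40 at -0.28 (adjusted p = 0.00628) and the outer membrane channel gene Vdac1 at -0.14 (adjusted p = 0.0508). Among 81 tested nuclear genes of oxidative phosphorylation, 1 rose and 5 fell, with a median of -0.021, and among 73 of mitochondrial ribosomal proteins 3 rose and 3 fell. Uqcrc1 of complex III fell by 0.17 (adjusted p = 0.0194) and Ndufa12 of complex I rose by 0.43 (adjusted p = 0.0304).

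Markers of other cell types were set beside the same 13.4% of all genes. All 8 tested markers of meninges and fibroblasts, all 6 of endothelium and all 4 tested erythroid entries rose, and 4 of 10 neuronal markers fell. Of the other lists, 1 of 9 motor neuron markers fell, 1 of 8 oligodendrocyte and 2 of 7 astrocyte markers rose, and no microglia, dorsal horn, skeletal muscle or ependyma marker was called by edgeR. The shares of motor neuron and oligodendrocyte markers were below that of all genes. The summed level of the 9 meninges and fibroblast markers was 214, 180, 182, 132 and 117 CPM in intact males 1, 2, 3, 5 and 6. In GDX males 1, 2, 4, 5 and 6 it was 210, 289, 399, 524 and 429 CPM, so that the 3 rats with the highest mitochondrial share were also the highest here. For the erythroid list the summed CPM of intact males was 14.2 ± 5.62 and that of GDX males 45.8 ± 32.1 (SD, n = 5 each). The most abundant genes of these lists were Col1a1 with 85.8 CPM, Flt1 with 50.3 CPM and Hba-a2 with 13.1 CPM, and no marker of these lists was at 0 in every library. RIN was also entered as a term, and the log2 fold change of AY172581.9 was then 0.30, against 0.31 without it, with an adjusted p of 0.142 by edgeR. The part of these cell types in the mitochondrial share was not tested.

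Removal of the ovaries gave no call among the members. Of 26 members tested, 0 were called by edgeR, beside 0.0335% of 14910 genes, and 0 by DESeq2. At an unadjusted p under 0.05, where 10.2% of genes lay, there was 1 member, AY172581.22, with 32 counts at most in a library, whose log2 fold change was 0.78 (SE 0.35, adjusted p = 0.457 by edgeR). AY172581.9 ranged from 45332 to 71774 CPM with a median of 57673 in intact females and from 45238 to 80491 CPM with a median of 59054 in OVX females. These ranges overlapped over most of their length. Its log2 fold change was 0.10 with a 95% interval from -0.16 to 0.36, and its sign changed to -0.072 with fragment class as a term and to -0.075 in the shorter class. That of AY172581.24 was -0.037 with an interval from -0.23 to 0.16. Mt-atp8 had 0.22 (SE 0.13, adjusted p = 0.603) and Mt-nd4 -0.41 (SE 0.36, adjusted p = 0.758). The median over the tested members was -0.010, against 0.0025 over all genes tested. No gene of the lists of mitochondrial transcription, RNA processing, biogenesis, mass, oxidative phosphorylation or mitochondrial ribosomal proteins was called, and 1 of 6 endothelial markers was, Kdr at 0.77 (adjusted p = 0.0966 by edgeR). At an unadjusted p under 0.05 there were all 6 endothelial markers, with a median log2 fold change of 0.49, all 5 erythroid markers, with a median of 0.90, 6 of 9 tested motor neuron markers, with a median of -0.32, and 6 of 10 neuronal markers, with a median of -0.16. These medians and those that follow are over all tested markers of a list, not only those with such a p. Such a p was also found for 2 of 4 tested skeletal muscle markers, with a median of 1.51. The same held for 3 of 7 astrocyte and 2 of 6 microglia markers, both with a median of 0.12. It held for 1 of 8 oligodendrocyte and 1 of 5 tested dorsal horn markers, and for 0 of 8 tested meninges and fibroblast and 0 of 3 ependyma markers. The summed endothelial markers were at 144 ± 33.0 CPM in intact females and 201 ± 26.1 CPM in OVX females (SD, n = 6 each), and their part in the values of the members was not tested.

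**Figure D4:**
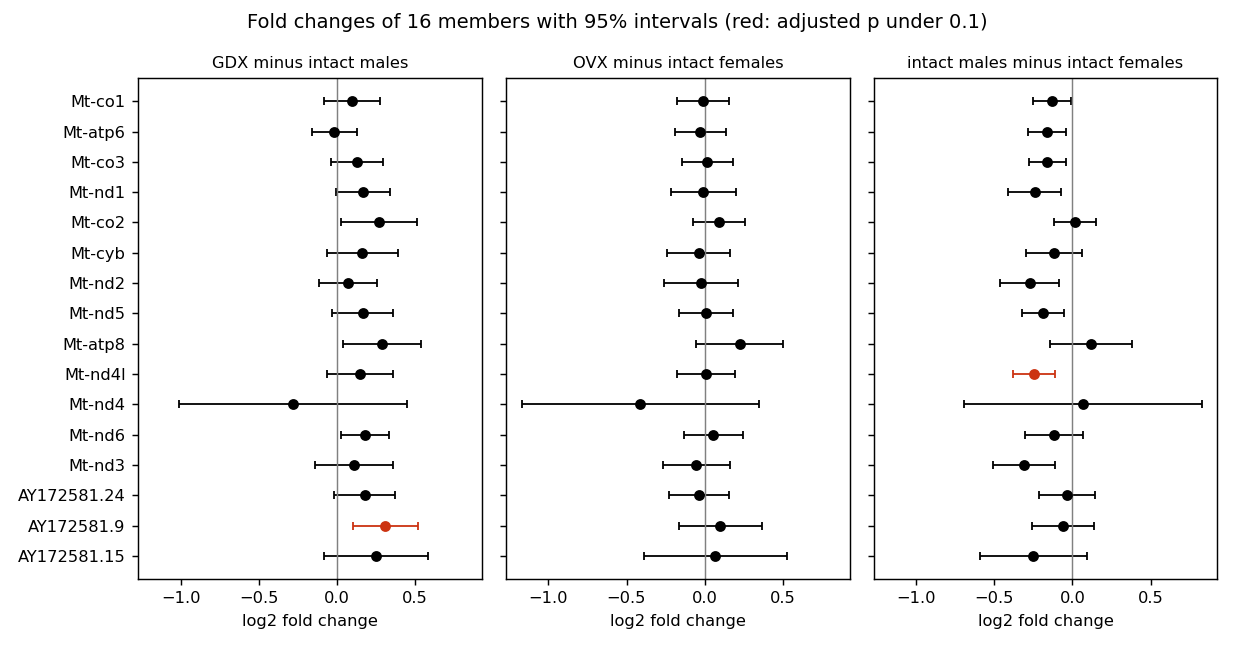
Log2 fold changes with 95% intervals from edgeR for the 13 Mt- genes and for AY172581.24, AY172581.9 and AY172581.15, in GDX minus intact males, OVX minus intact females and intact males minus intact females, with red for an adjusted p under 0.1. AY172581.9 at 0.31 and Mt-nd4l at -0.24 are the called members, and Mt-nd4 has the widest intervals.

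Intact males and intact females were compared to describe the sexes with gonads in place. Of 26 members tested, edgeR called 1, Mt-nd4l, beside 4.01% of 14937 genes in either direction and 2.56% with a lower level in males. Mt-nd4l, a small membrane subunit of complex I, had 405, 369, 414, 336 and 403 CPM in intact males 1, 2, 3, 5 and 6. Intact females had a lowest value of 406 CPM, a median of 461 and a highest of 511. Intact male 3 was above the lowest female and the other males were below all females. The log2 fold change was -0.24 (SE 0.063, adjusted p = 0.0574 by edgeR). Without the 4 libraries that stand apart it was -0.18 (adjusted p = 0.178 by edgeR), and in the shorter class alone -0.46 (adjusted p = 0.151) with 2 rats of each sex. Adjusted p by edgeR was 0.133 without intact male 2, 0.138 without intact male 5, 0.117 without intact female 3, 0.101 without intact female 4 and 0.11 without intact female 6. It was 0.25 by edgeR with all 22 rats in 1 fit, and DESeq2 gave 0.00473.

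A further 7 Mt- genes had an unadjusted p under 0.05, all with lower values in males, and 15.5% of all genes had such a p. The log2 fold change was -0.31 for Mt-nd3 (SE 0.093, adjusted p = 0.106 by edgeR), Mt-nd2 -0.27 (SE 0.089, adjusted p = 0.135) and Mt-nd1 -0.24 (SE 0.080, adjusted p = 0.14). Mt-nd5, Mt-co3, Mt-atp6 and Mt-co1 had values between -0.19 and -0.13. DESeq2 called 4 members, namely Mt-nd4l, Mt-nd5 (adjusted p = 0.0544), Mt-co3 (adjusted p = 0.0811) and Mt-atp6 (adjusted p = 0.0908), beside 820 genes in all. By edgeR, Mt-nd3 was called without a filter on low counts (adjusted p = 0.0742), in the shorter class (adjusted p = 0.061), without intact male 3 (adjusted p = 0.0299) and without intact female 2 (adjusted p = 0.0686). Mt-nd2 was called by edgeR without intact female 2 (adjusted p = 0.0958) or intact female 5 (adjusted p = 0.0999), and Mt-nd5 (adjusted p = 0.0619) and Mt-nd1 (adjusted p = 0.0784) without intact female 5. Intact females 1 and 3 are among the libraries with high Mt-nd1 and Mt-nd2, and without the 4 libraries that stand apart Mt-nd2 had -0.13 and Mt-nd1 -0.11. AY172581.24 and AY172581.9 had -0.036 and -0.060, with adjusted p of 0.893 and 0.823 by edgeR, and AY172581.9 turned to 0.052 without the 4 libraries. Among the nuclear lists, Esrrg was higher in intact males at 0.26 (SE 0.051, adjusted p = 0.0161 by edgeR) and Fastkd1, an RNA-binding protein of mitochondria, at 0.23 (adjusted p = 0.0798). The intact males are also the controls of the GDX comparison, so the values of Esrrg and of the cell type markers below rest in both on the same 5 rats. Of 8 tested meninges and fibroblast markers, 5 were lower in intact males, with a summed level of 165 ± 39.5 CPM (SD, n = 5) against 308 ± 101 CPM (SD, n = 6) in intact females. Of 6 endothelial markers 1 was lower in intact males, Cdh5 at -1.13 (adjusted p = 0.00181 by edgeR), with all 6 below 0, and of 10 neuronal markers 1 was higher, Snap25 at 0.14 (adjusted p = 0.0459 by edgeR). The part of these markers in the difference of Mt-nd4l was not tested.

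GDX males and OVX females, all of the shorter class, gave 0 called members of 27 tested by edgeR, beside 0.232% of 15084 genes, with 0 at an unadjusted p under 0.05 (9.37% of all genes) and 0 by DESeq2. The log2 fold change was 0.18 for AY172581.24 (SE 0.099, adjusted p = 0.593 by edgeR) and Mt-nd4l -0.098 (SE 0.12, adjusted p = 0.839). The interaction of sex and gonadectomy, which asks whether the responses of males and females differ, called 0 of 27 members by edgeR, beside 0.116% of 15562 genes, with 0 at an unadjusted p under 0.05 (11.6% of all genes) and 0 by DESeq2. Of the 27 members, 26 had values above 0 and 1 below, against 7835 of 15562 genes above 0. These directions are not independent between members. For AY172581.9 the male response exceeded the female one by 0.21 with a 95% interval from -0.16 to 0.58, and for AY172581.24 by 0.22 with an interval from -0.080 to 0.51. The call of AY172581.9 in males alone is thus not shown to differ from the result in females.

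Fragment classes were compared within the intact animals, in a model that also held sex. By edgeR 0 of 26 members were called, beside 0.00669% of 14937 genes, with 4 members at an unadjusted p under 0.05 (7.71% of all genes) and 0 called by DESeq2. These 4 were AY172581.8 at -1.01 (SE 0.40, adjusted p = 0.575), Mt-nd6 at -0.20 (SE 0.077, adjusted p = 0.547), AY172581.18 at -0.40 (SE 0.17, adjusted p = 0.598) and AY172581.1 at -0.29 (SE 0.13, adjusted p = 0.629), all lower in the longer class. Without a filter on low counts AY172581.8 was called at -1.01 (adjusted p = 0.0708 by edgeR), among 210 genes. AY172581.8 had at most 138 counts in a library. Its highest values were 7.77 CPM in intact female 1, 7.62 CPM in OVX female 5, 5.63 CPM in intact male 2 and 5.61 CPM in intact female 3, and 3 of these are among the libraries that stand apart. Markers of cell types were also compared between the classes. At an unadjusted p under 0.05 there were 8 of 9 tested motor neuron markers, with a median log2 difference of 0.41 for the longer over the shorter class, 6 of 10 neuronal markers, with a median of 0.11, and all 3 tested skeletal muscle markers, with a median of -1.76. The medians are over all tested markers of a list. None of these markers was called by edgeR, and the 1 gene called among all genes was the dorsal horn gene Penk at -0.55 (SE 0.080, adjusted p = 0.0825). The summed motor neuron markers, led by Prph, were at 601, 730 and 954 CPM in the longer-class intact males 1, 3 and 6 and at 495 and 518 CPM in the shorter-class males 2 and 5. In females they were at 805, 831, 809 and 704 CPM in the longer-class rats 2, 3, 5 and 6 and at 589 and 731 CPM in the shorter-class rats 1 and 4. The summed skeletal muscle markers, led by Myh2, were highest in the shorter-class intact male 2 at 133 CPM and intact female 4 at 48.6 CPM, then in the longer-class intact female 6 at 38.5 CPM. No marker of these lists was at 0 in every library, and their part in the differences of the members was not tested.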

How the data were processed

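RNA was isolated from 22 rats and sequenced with 1 library each. The deposited counts, whole numbers per gene that the authors had not normalized, were used; whether 1 count is a single read or a read pair is not settled by the sources used here. According to the methods the libraries came from a stranded total RNA kit with cleavage of ribosomal cDNA, while the sample descriptions name another kit. The methods name Hisat2, and the submitters' processing notes TopHat2 2.0.13, on Rnor_6.0, with Subread for counting. Strand, overlap and multi-mapping settings are not given in the sources used here. All 22 columns matched a rat by name, the header Inact standing for intact males. Totals were 12371756 to 17571887.

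Comparisons used R 4.3.3 and edgeR 4.0.16 (filterByExpr, TMM, glmQLFit, glmQLFTest, Benjamini-Hochberg over all genes tested, level 0.1). Only the groups compared entered a fit, except for the interaction. CPM were scaled by TMM factors over 22 libraries, and log2 CPM had a prior count of 2. Ratios were tested by exact permutation over rats, adjusted over 8 tests. Intervals are 95%. The pipeline was tested on simulated data.

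Named are all Mt- genes, the 3 AY172581. features with the highest mean, called members, and for some lists and comparisons the gene or pair of lowest p. Other lists are given by their counts only. AY172581.1, AY172581.8, AY172581.18 and AY172581.22 were named after their values were seen. The members and lists were chosen with earlier results of these data known. Alternatives were DESeq2 1.42.0, RLE factors, library size from nuclear genes, no filter, a filter at 1 CPM, RIN or fragment class as a term, the shorter class only, all 22 rats in 1 fit, rat number as a block, each rat left out in turn, other denominators, and, chosen after seeing the data, leaving out the 4 libraries that stand apart. Composition per length was not run, since no lengths were at hand.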

Additional observations from a re-analysis of the deposited data

Results flagged for a closer look

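Dixon's criterion at the 95% level was applied to 140 combinations of a measure and a group to find single rats distant from their group. Chance alone gives such a value in about 1 in 20 groups, or 7 here, and 6 were found, so their number is no more than chance gives. OVX female 3 gave 3 of them. Its Mt-co2 level was 4118 CPM against 2745 to 3195 CPM in the other OVX females, its AY172581.24 level 177126 CPM against 121144 to 141792 CPM, and AY172581.24 took 16.7% of its counts against 12.7% to 13.9%. Intact male 5 had 2572 CPM of Mt-co2 against 3095 to 3275 CPM in the other intact males, and Mt-nd6 made up 0.589% of its Mt- counts against 0.380% to 0.417%. OVX female 5, among the libraries that stand apart, had 33.0 CPM of AY172581.15 against 11.7 to 19.2 CPM.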

How the results depend on the processing

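Across the 16 named members and 6 comparisons, 1976 of 2176 values under other settings kept sign and side of the 0.1 level, 159 had the other sign, 19 lost a call and 22 gained one. The 44 fold changes that changed sign were not called, with adjusted p of 0.673 or more in edgeR's test. The cause was not tested for any value below, except that leaving out rats lowers their number. Composition per length was not run. Depth limits the 12 AY172581. features with a mean under 20 counts, whose values carry large counting error.

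Members called for GDX against intact males were 2 with library size from nuclear genes, 2 by DESeq2 and 2 with a filter at 1 CPM. They were 0 with RIN as a term, 0 with fragment class as a term, 0 in the shorter class and 0 with all 22 rats in 1 fit, and 0 to 5 with 1 rat left out, 5 without GDX male 1. All genes called were 2031 with nuclear library size, 2101 by DESeq2, 2009 at 1 CPM, 2395 with all 22 rats in 1 fit and 2446 without GDX male 1. For intact males against intact females they were 4 by DESeq2, 2 without a filter, 0 with all 22 rats in 1 fit and 0 without the 4 libraries that stand apart, and 0 to 4 with 1 rat left out. For the fragment classes 1 member, AY172581.8, was called without a filter. OVX, the GDX and OVX rats and the interaction gave 0 in each setting run. Over all genes, calls for GDX moved from 1995 to 1262 with RIN, 796 with fragment class, 440 in the shorter class and 1202 without GDX male 5. Calls for OVX moved from 5 to 174 by DESeq2, 11 without a filter, 11 with RIN, 8 with nuclear library size, 9 with all rats, 3 with fragment class, 22 without the 4 libraries, and 0 to 113 with 1 rat left out. Calls between intact sexes moved from 599 to 820 by DESeq2, 564 without a filter, 613 with all 22 rats, 553 without the 4 libraries, 34 in the shorter class, 352 without intact male 1 and 385 without intact male 5. Calls between GDX and OVX rats moved from 35 to 130 by DESeq2, 61 with all rats and 23 without OVX female 1. Calls for the interaction moved from 18 to 243 by DESeq2, 33 without a filter, 6 with a filter at 1 CPM, 5 with RIN, 6 with fragment class, 5 in the shorter class, 5 without the 4 libraries, and 1 to 275 with 1 rat left out. Calls for fragment class moved from 1 to 59 by DESeq2, 210 without a filter, 0 with RIN, 0 without the 4 libraries, and 0 to 2 with 1 rat left out.

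The log2 ratio of the mitochondrial share between intact sexes was -0.039, with -0.077 without AY172581.24, -0.060 per nuclear counts, -0.060 without the 4 libraries that stand apart, -0.19 in the shorter class and -0.062 to -0.013 with 1 rat left out. For OVX it was 0.065 without AY172581.24, -0.058 in the shorter class and -0.046 to 0.039 with 1 rat left out. For GDX it was 0.22 without AY172581.24, 0.21 per nuclear counts, 0.23 in the shorter class and 0.097 to 0.20 with 1 rat left out, the lowest without GDX male 4. With all members but AY172581.24 as denominator, differences in percent of Mt-nd6 were -0.0064 for GDX, -0.000596 for OVX and -0.00353 between intact sexes, and that of AY172581.24 was -7.56 for GDX. Mt-nd6 was at -0.0405 for GDX and -0.0163 for OVX in the shorter class, and at -0.00654 for OVX and -0.0221 between intact sexes without the 4 libraries. AY172581.24 per 100 Mt- counts was at -13.5 between intact sexes and -19.5 between fragment classes without these libraries. With all libraries the difference between fragment classes was 6.62 (exact permutation p = 0.893) and that of Mt-nd6 between intact sexes 0.0108 (exact permutation p = 0.829). With 1 rat left out, Mt-nd6 ranged from -0.00511 to 0.0344 for OVX and from -0.0257 to 0.0284 between intact sexes, and AY172581.24 from -28.2 to 4.93 for OVX and from -34.6 to 47.9 between fragment classes.

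Log2 fold changes took the other sign as follows. For GDX against intact males the values with the other sign were with fragment class as a term Mt-nd4 0.73 and Mt-atp6 0.11, and in the shorter class alone Mt-nd4 0.73 and Mt-atp6 0.11. For OVX against intact females the values with the other sign were with fragment class as a term Mt-nd6 -0.13, Mt-nd5 -0.090, Mt-co3 -0.024, Mt-nd4l -0.079, AY172581.9 -0.072 and AY172581.15 -0.28, in the shorter class alone Mt-nd6 -0.13, Mt-nd5 -0.094, Mt-co3 -0.027, Mt-nd4l -0.082, AY172581.9 -0.075 and AY172581.15 -0.28, and without the 4 libraries that stand apart Mt-nd6 -0.021 and Mt-nd1 0.014. For intact males against intact females the values with the other sign were with fragment class as a term Mt-nd4 -0.020, in the shorter class alone Mt-nd4 -0.97 and Mt-co2 -0.13, and without the 4 libraries that stand apart Mt-nd4 -0.20, Mt-co2 -0.037, Mt-atp8 -0.033 and AY172581.9 0.052. For GDX males against OVX females the values with the other sign were without the 4 libraries that stand apart Mt-nd5 0.046, Mt-nd1 0.046, Mt-co3 0.0038, Mt-co1 0.017 and AY172581.15 0.11. For the fragment classes the values with the other sign were with no filter on low counts Mt-cyb -0.00064, with RIN as a term Mt-cyb -0.0058, and without the 4 libraries that stand apart Mt-nd5 0.030, Mt-nd1 0.053 and AY172581.9 0.016.

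With 1 rat left out, these log2 fold changes changed sign. For GDX against intact males the ranges were Mt-nd2 -0.0070 to 0.12 and Mt-atp6 -0.070 to 0.012. For OVX against intact females the ranges were Mt-nd6 -0.0040 to 0.12, Mt-nd5 -0.063 to 0.040, Mt-nd1 -0.10 to 0.042, Mt-co3 -0.043 to 0.056, Mt-nd2 -0.13 to 0.031, Mt-nd4l -0.067 to 0.044, Mt-cyb -0.12 to 0.0029, Mt-atp6 -0.11 to 0.0085, Mt-nd3 -0.13 to 0.0090, Mt-co1 -0.076 to 0.028, AY172581.24 -0.12 to 0.025 and AY172581.15 -0.16 to 0.18. For intact males against intact females the ranges were Mt-nd4 -0.10 to 0.28, Mt-co2 -0.018 to 0.069, AY172581.24 -0.082 to 0.030 and AY172581.9 -0.12 to 0.017. For GDX males against OVX females the ranges were Mt-nd6 -0.030 to 0.055, Mt-nd4 -0.0026 to 0.46, Mt-nd5 -0.13 to 0.043, Mt-nd1 -0.15 to 0.027, Mt-co3 -0.11 to 0.020, Mt-cyb -0.027 to 0.18, Mt-co1 -0.10 to 0.043 and AY172581.15 -0.25 to 0.16. For the interaction the ranges were Mt-nd4 -0.079 to 0.40, Mt-atp6 -0.037 to 0.092, Mt-atp8 -0.061 to 0.15 and AY172581.15 -0.0048 to 0.41. For the fragment classes the ranges were Mt-nd5 -0.070 to 0.052, Mt-co2 -0.038 to 0.10, Mt-nd1 -0.067 to 0.092, Mt-nd2 -0.038 to 0.14, Mt-nd4l -0.036 to 0.10, Mt-cyb -0.092 to 0.075, Mt-atp6 -0.037 to 0.092, Mt-nd3 -0.060 to 0.15, Mt-co1 -0.025 to 0.072, AY172581.24 -0.0045 to 0.21 and AY172581.9 -0.15 to 0.034.

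Rats share numbers between groups, and deviations of rats with the same number correlated at -0.114 to 0.0626. No pairing by number was seen in these values. How rats were numbered is not given in the sources used here, and shared handling by number was not tested. With rat number as a replicate block, 5 members were called between intact sexes, 1 for GDX, and 0 for OVX, for GDX against OVX rats and for the interaction, and 1274 genes for GDX, 255 between intact sexes, 0 for OVX and 0 for the interaction. With the replicate block the log2 fold changes of the other sign were Mt-nd4 0.032 for GDX against intact males, Mt-nd5 -7.3e-05 and Mt-nd4l -0.0047 for OVX against intact females, AY172581.24 0.032 for intact males against intact females, Mt-nd5 0.00086, Mt-co3 0.013 and Mt-co1 0.038 for GDX males against OVX females, and Mt-atp8 -0.0082 for the interaction.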

Other observations

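AY172581.9 relative to the Mt- genes was 146, 175, 191, 186 and 174 counts per 100 Mt- counts in intact males 1, 2, 3, 5 and 6. In GDX males 1, 2, 4, 5 and 6 it was 190, 191, 201, 204 and 207. Intact male 3 overlapped with the GDX males and the other intact males lay below them. Intact females ranged from 144 to 191 with a median of 160, and OVX females from 148 to 203 with a median of 178. Intact male 1 and intact females 4, 5 and 6 had the lowest values of their groups, and these rats also had more than 3 counts of AY172581.24 per count of AY172581.9. This ratio was examined after its values were seen and was not tested.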
